A study of Mus musculus with 4 samples.

Results

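The 9 genes followed here encode the DNA-binding factor RBPJ and the coactivators and corepressors with which it assembles, namely Rbpj, Maml1, Maml2, Maml3, Ep300, Crebbp, Snw1, Spen and Ncor1. They were chosen by name, by a rule that uses no measured value, but with earlier results of these data known. All 9 are among the 24391 genes of the count table and among the 12266 genes with enough reads to be tested. RBPJ sits on DNA and acts in either direction. When a Notch receptor is cleaved by γ-secretase, its intracellular domain (NICD) enters the nucleus, binds RBPJ together with a Mastermind-like protein (MAML) and brings in the acetyltransferases p300 and CBP. Without NICD, RBPJ can instead recruit SPEN (also called SHARP), which carries the NCOR1 corepressor and histone deacetylases, and this switch is used by T-cell progenitors, in which Notch drives commitment to the T lineage.

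RNA-Seq was measured in Beko cells, a mouse progenitor T-cell line in which Notch signaling is constitutively active. The GSI group was 2 libraries of cells treated for 48 h with DAPT, a γ-secretase inhibitor (GSI), and the washout group was 2 libraries of cells treated in the same way, washed and returned to culture for 24 h. The labels give the dose of DAPT as 10 mg/ml and the study's methods give it in μg/ml, and no library of cells without DAPT is analysed here. Washout therefore combines the release from the inhibitor with 24 h of further culture and another wash, which cannot be told apart. Whether the replicates were separate cultures is not stated, so p-values measure the spread between these libraries. The libraries held between 13716199 and 36364200 counted reads, replicate 1 being the deeper in both groups, and replicates differed by more than sampling noise. All 13 markers of T-cell progenitors on the list used were expressed, for example the pre-TCR chain gene Ptcra at 47.1 and 54.4 CPM (read counts scaled to the TMM-adjusted library size) in the GSI libraries and 249 and 276 CPM in the washout libraries. Of these 13 markers 3 were higher and 5 lower upon washout at an adjusted p under 0.05, the largest fall being that of Gata3, a T-lineage transcription factor gene, from 262 and 208 CPM to 75.8 and 71.7 CPM. Some markers of B cells (Pax5, Ebf1), myeloid cells (Lyz2, Elane), erythroid cells (Hbb-b1, Hba-a1) and fibroblasts (Dcn, Lum) had 0 counts in every library. The other markers on the same lists had reads in some or all libraries. Counts of the erythroid marker Epor were 378 and 161 under GSI, then 213 and 86 after washout. For the erythroid marker Klf1 they were 45 and 19, then 22 and 7. The fibroblast marker Col1a2 had 70 and 26, then 43 and 21, and Col1a1 had 29 and 18, then 4 and 0. Epor, Klf1 and Col1a1 were lower at an adjusted p under 0.05, and Col1a2 did not pass. The B-cell marker Cd79a had 14 and 6, then 10 and 3. None of the 5 B-cell markers could be tested. Of the 6 myeloid, 4 erythroid and 5 fibroblast markers, 1, 2 and 2 could be tested, and the myeloid one was the integrin gene Itgam, which fell from 48.7 and 37.9 CPM to 5.38 and 4.76 CPM. The summed level of the erythroid markers was between 12.3 and 13.2 CPM in GSI and between 6.90 and 6.92 CPM upon washout, and that of the fibroblast markers between 3.02 and 3.16 CPM and between 1.38 and 1.56 CPM. The part of these cell markers in the results below was not tested.

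RBPJ reads the letters TGGGAA. The promoters of Rbpj and of the 3 Mastermind-like genes, the latter chosen because they moved together in these data, are shown first. Whether these letters bear on the change of any of the genes was not tested. Each is a RefSeq window of 300 bases on build GRCm38.p6, running 5′ to 3′ on the strand of the gene from 250 bases before a transcription start to 50 bases after it, and capitals mark the core TGGGAA or its reverse complement TTCCCA. The windows are chr5:53590096-53590395 (plus strand) for Rbpj, chr11:50292287-50292586 (minus strand) for Maml1, chr9:13662210-13662509 (plus strand) for Maml2 and chr3:52104957-52105256 (minus strand) for Maml3.
Rbpj: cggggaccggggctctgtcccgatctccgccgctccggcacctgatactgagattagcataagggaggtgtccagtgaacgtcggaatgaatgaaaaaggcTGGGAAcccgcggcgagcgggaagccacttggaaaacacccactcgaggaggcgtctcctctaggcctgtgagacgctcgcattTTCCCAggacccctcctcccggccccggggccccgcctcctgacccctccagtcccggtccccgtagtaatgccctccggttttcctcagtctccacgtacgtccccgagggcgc
Maml1: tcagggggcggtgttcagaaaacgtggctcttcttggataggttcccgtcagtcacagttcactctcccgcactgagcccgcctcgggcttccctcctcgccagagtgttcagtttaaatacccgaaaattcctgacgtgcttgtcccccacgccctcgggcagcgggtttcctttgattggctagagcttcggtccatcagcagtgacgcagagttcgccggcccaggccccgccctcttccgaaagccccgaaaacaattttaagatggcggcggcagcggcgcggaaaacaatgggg
Maml2: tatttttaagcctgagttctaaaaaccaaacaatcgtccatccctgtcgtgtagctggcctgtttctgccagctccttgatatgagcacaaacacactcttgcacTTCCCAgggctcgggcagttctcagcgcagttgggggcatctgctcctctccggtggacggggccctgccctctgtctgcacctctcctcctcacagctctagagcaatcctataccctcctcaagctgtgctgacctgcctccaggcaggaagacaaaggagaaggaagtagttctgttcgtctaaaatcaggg
Maml3: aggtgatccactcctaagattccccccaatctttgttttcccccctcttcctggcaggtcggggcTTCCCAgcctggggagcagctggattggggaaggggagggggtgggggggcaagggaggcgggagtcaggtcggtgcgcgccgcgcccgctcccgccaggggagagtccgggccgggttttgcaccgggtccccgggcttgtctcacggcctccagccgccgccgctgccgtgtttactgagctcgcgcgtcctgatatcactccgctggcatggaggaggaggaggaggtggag
The Rbpj window held the core at 149 and at 65 bases before the start, the Maml2 window shown at 145 bases and the Maml3 window at 185 bases before the start, and the Maml1 window held none. RefSeq gives another Maml2 window, chr9:13297708-13298007, which held no core. For comparison, 25.6% of all 32851 windows of this length held the core on either strand. RefSeq gave 11 windows for 8 of the 9 genes, some of them overlapping, and 6 of these windows, of 5 genes, held the core. In the window of Spen it lay 8 bases before the start. The letters GGGCGG or CCGCCC, the core bound by SP factors, were found in 6 windows of 6 genes, among them Maml1 with 2 matches, Crebbp with 2 and Spen with 3, against 35.7% of all windows. The Rbpj and Maml2 windows shown belong to starts that lie 34567 and 42470 bases inside the gene as the mm9 annotation draws it. The Ncor1 window with the core belongs to a start 20026 bases inside its gene, and the other Ncor1 window, 1209 bases inside, held no RBPJ core. A match is a run of letters, and occupancy by RBPJ was not analysed here.

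The comparison of washout with GSI asks how the transcripts of RBPJ and its partners stood once γ-secretase inhibition ended. Rbpj itself stayed within the spread of its replicates, whereas the 3 Mastermind-like genes and Ep300 were lower upon washout and the adaptor gene Snw1 was higher. By edgeR's quasi-likelihood test, 6 of the 9 genes were lower at an adjusted p under 0.05, 1 was higher and 2 did not pass. Among all genes tested, 25.4% were lower and 27.0% higher by this rule. With the study's added requirement of a log2 fold change beyond 1, Maml2 and Maml3 were lower and no member was higher (the largest positive value being 0.60), where 11.7% of all genes tested were lower and 7.74% higher. The median log2 fold change of the 9 genes was -0.44 and that of all genes tested was -0.01. The libraries of the 2 groups did not overlap for 8 of the 9 genes, and for 77.3% of all genes tested. In bulk RNA, fewer cells with a transcript and less transcript per cell cannot be told apart.

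**Figure D1:**
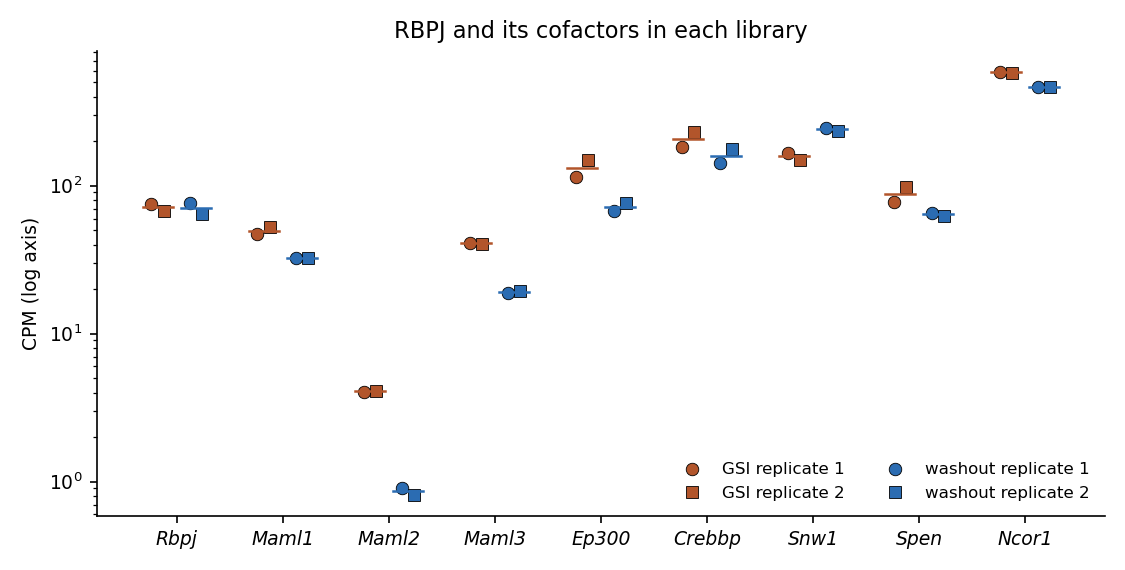
Level of each gene in every library, in CPM on a log axis, with circles for replicate 1, squares for replicate 2, and a line at the mean of each group of 2 libraries. Rbpj lay at 64.5 to 77.0 CPM in all 4 libraries with the groups interleaved, Maml2 dropped from about 4 CPM to below 1 CPM, and Snw1 was the gene whose washout libraries lay above its GSI libraries.

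Rbpj, on chromosome 5 from 53947018 to 54048684 (mm9, plus strand), encodes the factor that binds DNA. It had 75.7 and 67.5 CPM in the GSI libraries and 77.0 and 64.5 CPM in the washout libraries. The 2 groups overlapped, since replicate 1 was the higher library in each. The log2 fold change was -0.02 (SE 0.122, edgeR adjusted p = 0.924) and lay between -0.22 and 0.12 over the 11 alternative settings with a test against no change. RefSeq lists pseudogenes of Rbpj that have no entry in the count table, so reads shared with them are uncertain. Rbpjl, the paralog known from pancreas, had 0 counts in every library. The genes whose pattern was closest to Rbpj over the 4 libraries, among the 9287 genes at or above a mean log2 CPM of 3, were Agps, 2810474O19Rik and Tmed10. They lay at distances of 0.0244, 0.0249 and 0.0294 on the log2 CPM scale after centring each gene on its mean. Agps, for instance, had 148 and 131 CPM in the GSI libraries and 152 and 125 CPM in the washout libraries. None of the other members was among the nearest 100 genes.

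The Mastermind-like proteins clamp NICD onto RBPJ and are needed for the activating complex. All 3 genes were lower upon washout, by different amounts. Maml2, on chromosome 9 from 13424434 to 13513832 (plus strand), had 130 and 60 counts in GSI and 31 and 11 counts upon washout, or 4.06 and 4.11 CPM against 0.911 and 0.818 CPM. Its washout libraries were 4.65-fold lower, and with 11 counts in the shallower one its level there is set only to within 0.409 and 1.46 CPM (95% exact Poisson interval, counting error only). The log2 fold change was -2.22 (SE 0.288, edgeR adjusted p = 0.00153), and the fall passed the adjusted p in all 11 alternatives.

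Maml3, on chromosome 3 from 51491533 to 51908813 (minus strand), had 40.8 and 40.6 CPM in the GSI libraries and 18.8 and 19.3 CPM in the washout libraries. Replicates lay close together and the groups were far apart, with a log2 fold change of -1.10 (SE 0.106, edgeR adjusted p = 6.21e-04). The fall kept its adjusted p in all 11 alternatives, although its size no longer passed 1 on the log2 scale with the correction for GC content and length (-0.75) and edgeR's glmTreat, which asks for evidence beyond a log2 fold change of 1, gave an adjusted p of 0.476. Maml1, on chromosome 11 from 50069136 to 50105838 (minus strand), had 47.0 and 52.4 CPM in the GSI libraries and 32.3 and 32.7 CPM in the washout libraries. Its groups did not overlap, and the log2 fold change was -0.61 (SE 0.106, edgeR adjusted p = 0.00431), or -0.27 (adjusted p = 0.0421) with that correction.

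The make-up of the Mastermind-like transcripts did not overlap between the groups. Per kilobase of exon, Maml1 held 55.0% and 57.8% of the summed Maml level in GSI and 65.7% and 65.6% upon washout. Maml2 held 4.40% and 4.20% in GSI and 1.72% and 1.52% upon washout. For Maml3 the shares were 40.6% and 38.0% in GSI and 32.6% and 32.9% upon washout. Maml1 was the main paralog in every library, and more so upon washout. Relative to Rbpj, the summed Maml level per kilobase was 1.18 and 1.41 in GSI and 0.668 and 0.809 upon washout. Without correction for GC content and length, it thus lay above Rbpj in the GSI libraries and below it in the washout libraries. With that correction the log2 fold changes were -0.27 for Maml1, -2.23 for Maml2, -0.75 for Maml3 and -0.06 for Rbpj. With 2 libraries in each group an exact two-sided permutation test cannot give a p under 0.333, and each of the 9 ratios compared had that value, also after adjustment over the 9.

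**Figure D2:**
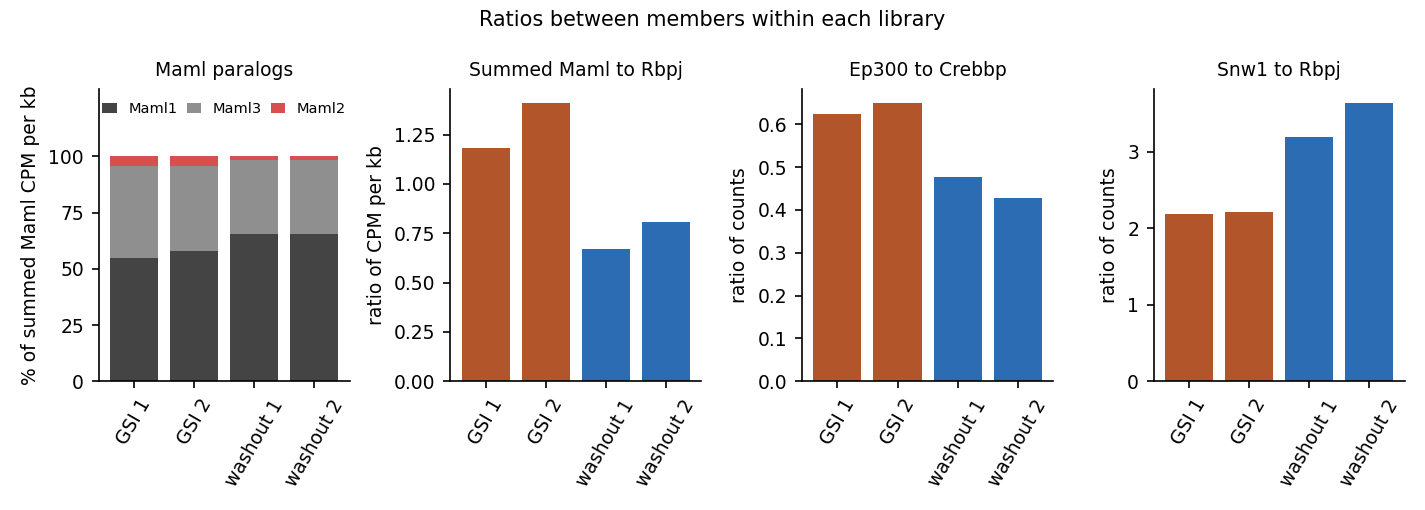
Ratios between members within each library, from left to right the share of each Mastermind-like gene in their summed CPM per kilobase (percent), and the ratios of summed Maml to Rbpj per kilobase, of Ep300 to Crebbp counts and of Snw1 to Rbpj counts. Bars are single libraries, GSI in brown and washout in blue in the last 3 panels, and in each panel the GSI and washout libraries do not overlap.

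p300 and CBP are paralogous acetyltransferases that MAML brings to the complex. Ep300, on chromosome 15 from 81415781 to 81482507 (plus strand), had 114 and 150 CPM in the GSI libraries and 67.4 and 76.3 CPM in the washout libraries. Every GSI library was above every washout library, although the GSI replicates differed from each other by 1.32-fold, more than counting error. The log2 fold change of Ep300 was -0.88 (SE 0.152, edgeR adjusted p = 0.00433), and -0.53 (adjusted p = 0.0141) with the correction for GC content and length. Crebbp, on chromosome 16 from 4084048 to 4213404 (minus strand), had 182 and 231 CPM in the GSI libraries and 142 and 178 CPM in the washout libraries. The lowest GSI library and the highest washout library of Crebbp were almost level, and the log2 fold change of -0.37 (SE 0.161) did not pass the test (edgeR adjusted p = 0.0987). It passed in 4 of the 11 alternatives, and its log2 fold change was -0.01 once GC content and length were corrected for. The ratio of Ep300 to Crebbp counts was 0.624 and 0.650 in GSI and 0.476 and 0.428 upon washout, without overlap, and depth cancels in this ratio.

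SNW1 (SKIP), a splicing-related protein that has been described in both the activating and the repressing RBPJ complex, was the exception in direction. Snw1, on chromosome 12 from 88790886 to 88813249 (minus strand), had 166 and 150 CPM in the GSI libraries and 245 and 235 CPM in the washout libraries. Both washout libraries lay above both GSI libraries. The log2 fold change was 0.60 (SE 0.101, edgeR adjusted p = 0.00372), and it passed the adjusted p in all 11 alternatives. However, 945 of its 2231 exon bases are shared with Slirp, a gene on the opposite strand that encodes a mitochondrial RNA-binding protein. Slirp had 30.8 and 27.1 CPM in the GSI libraries and 48.9 and 42.4 CPM in the washout libraries, giving a log2 fold change of 0.66 (edgeR adjusted p = 0.00624). The strand setting of the counting is not stated in the sources used here, so the part of Slirp reads in the value of Snw1 was not tested. The ratio of Snw1 to Rbpj counts was 2.19 and 2.22 in GSI and 3.19 and 3.64 upon washout.

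The corepressor genes showed smaller differences, whose calls depended on the processing. SPEN is the large adaptor that links RBPJ to the deacetylase complexes. Spen, on chromosome 4 from 141023805 to 141094512 (minus strand), had 77.2 and 97.6 CPM in the GSI libraries and 65.8 and 62.4 CPM in the washout libraries. The groups did not overlap, but the GSI replicates differed by 1.26-fold. Its log2 fold change was -0.44 (SE 0.131, edgeR adjusted p = 0.0306), with an adjusted p of 0.210 without GSI replicate 2 and of 0.0626 without washout replicate 2. Its sign turned once GC content and length were corrected for, to 0.22 (adjusted p = 0.135).

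Ncor1, on chromosome 11 from 62129928 to 62272043 (minus strand), encodes the corepressor scaffold that holds HDAC3. It had the highest CPM of the 9 genes, at 588 and 580 CPM in the GSI libraries and 468 and 463 CPM in the washout libraries. Replicates were close and the groups were separate, with a log2 fold change of -0.33 (SE 0.103, edgeR adjusted p = 0.0375). Leaving out any one library took the adjusted p to between 0.0837 and 0.185, and once GC content and length were corrected for the log2 fold change was -0.07 (adjusted p = 0.518). Rbm15 and Rbm15b, which belong to the SPEN family of proteins, had log2 fold changes of -0.02 and 0.06 (edgeR adjusted p = 0.930 and 0.652).

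**Figure D3:**
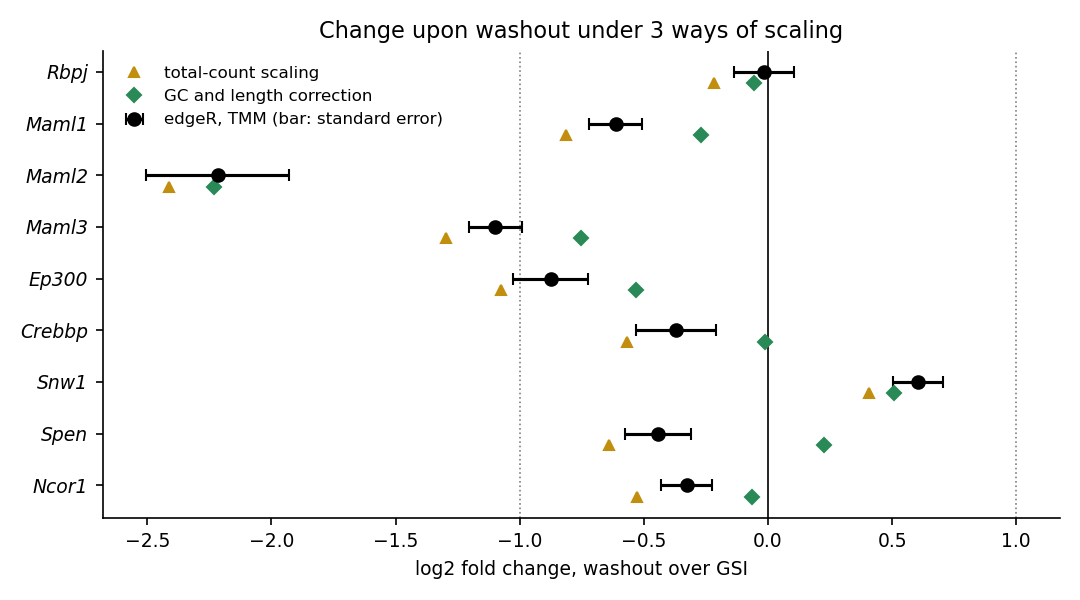
Log2 fold change of washout over GSI for each gene, in black with TMM scaling and its standard error, as triangles with scaling by total count and as diamonds with the correction for GC content and exon length, with dotted lines at -1 and 1. Maml1, Maml2, Maml3 and Ep300 lay below 0 and Snw1 above 0 in all 3, while the diamond of Spen lay above 0 and those of Crebbp, Ncor1 and Rbpj close to 0.

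Most of these genes are long, and long genes as a whole had lower fold changes in these libraries. Spen (14.09 kb of exons), Ncor1 (12.82 kb) and Ep300 (11.23 kb) were longer than 99.0%, 98.4% and 97.3% of the genes tested, and 8 of the 9 members were longer than at least 76.0% of them. The exception was Snw1 with 2.231 kb, longer than 25.2%. The 10962 genes tested that were matched by name to an annotated length and GC content were sorted by exon length into 4 groups of about equal size. The median log2 fold change was 0.13, 0.02, -0.01 and -0.14 from the shortest group to the longest. With length and GC content corrected for, 4 members remained lower (Maml1, Maml2, Maml3 and Ep300) and Snw1 remained higher. Scaling by the total count alone shifted the median of all genes by -0.20. Relative to the median of all genes under that scaling, the log2 fold changes were -0.60 for Maml1, -2.21 for Maml2, -1.09 for Maml3, -0.86 for Ep300, -0.36 for Crebbp, 0.61 for Snw1, -0.43 for Spen, -0.32 for Ncor1 and -0.01 for Rbpj.

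Levels of different genes can be set side by side only per length, here as CPM per kilobase of annotated exon. In GSI the order was Snw1 (74.3 and 67.2), Ncor1 (45.9 and 45.2), Crebbp (24.3 and 30.7), Rbpj (13.0 and 11.6), Ep300 (10.1 and 13.3), Maml1 (8.47 and 9.44), Maml3 (6.25 and 6.22), Spen (5.48 and 6.93) and Maml2 (0.678 and 0.686). Rbpj could not be separated from Ep300, nor Maml3 from Spen, because their GSI libraries overlapped. Upon washout no neighbors in the order overlapped. Spen (4.67 and 4.43) then stood above Maml3 (2.88 and 2.95), and the rest of the order was the same. Ep300 lay below Rbpj there. Ncor1 to Rbpj, Spen to Rbpj and Ep300 to Rbpj count ratios were each lower in both washout libraries than in both GSI libraries, for Spen at 0.855 and 0.967 against 1.02 and 1.45. These ratios of counts are not corrected for GC content and length, and with that correction the log2 fold changes were 0.22 for Spen, -0.07 for Ncor1 and -0.06 for Rbpj, so that Spen to Rbpj turned in direction.

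Among further genes of the repressing machinery, 21 of the 25 listed corepressor partners could be tested, and 6 were higher and 4 lower at an adjusted p under 0.05, where 27.0% of all genes tested were higher and 25.4% lower. Their median log2 fold change was 0.05. The 3 largest rises were those of Sap30, a SIN3 complex subunit (log2 fold change 0.90, edgeR adjusted p = 0.00155), Rbbp8, which encodes the CtBP-interacting protein CtIP (0.89, adjusted p = 0.00122), and the deacetylase gene Hdac2 (0.73, adjusted p = 0.00202). The 3 largest falls were those of genes of the Groucho family, which includes corepressors for HES factors among others. All 3 lie in the same stretch of chromosome 10 (mm9). Aes runs from 81022239 to 81029107, Tle2 from 81037306 to 81053590 and Tle6 from 81053649 to 81063818. Whether they changed as a single locus or separately was not tested. Tle6 fell from 15.4 and 7.27 CPM to 1.29 and 0.744 CPM (log2 fold change -3.40, edgeR adjusted p = 0.00172), and the log2 fold change was -2.75 without GSI replicate 1. Tle2 fell from 75 and 23 counts to 14 and 2 counts (log2 fold change -2.62, edgeR adjusted p = 0.00578). Its log2 fold change was -3.69 without washout replicate 1, its adjusted p from glmTreat was 0.0585, and it was not tested with the minimum of 10 counts in every library. The short family member Aes fell from 356 and 301 CPM to 123 and 104 CPM (log2 fold change -1.53, edgeR adjusted p = 5.03e-04). The family did not move as one, since Tle3, named here after its values were seen, had 208 and 279 CPM in the GSI libraries and 363 and 413 CPM in the washout libraries (log2 fold change 0.67, edgeR adjusted p = 0.0150, or 0.0814 without GSI replicate 1), and Tle1 and Tle4 had too few reads to be tested. Tle6, Tle2 and Aes were the 3 partners lower past both thresholds, and none was higher past both, as the largest rise was 0.90. Without GSI replicate 1 the number of higher partners was 3 in place of 6.

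Of the 24 coactivator partners, all tested, 9 were higher and 9 lower at an adjusted p under 0.05, against the same 27.0% and 25.4% of all genes tested, with a median log2 fold change of -0.01. The acetyltransferase gene Kat2a (GCN5) rose from 58.9 and 67.0 CPM to 143 and 153 CPM (log2 fold change 1.23, edgeR adjusted p = 4.62e-04). Paxip1 (PTIP), a partner of the H3K4 methyltransferase complexes, and Wdr5, a core subunit of them, had log2 fold changes of 1.03 (adjusted p = 0.00231) and 0.80 (adjusted p = 8.53e-04). That of Paxip1 lay between 0.83 (without GSI replicate 1) and 1.26 (without GSI replicate 2) over the alternatives. The falls were led by Med13l, of the Mediator kinase module, from 169 and 166 CPM to 68.3 and 73.4 CPM (log2 fold change -1.24, edgeR adjusted p = 3.60e-04). With the correction for GC content and length its log2 fold change was -0.89. The methyltransferase genes Kmt2d and Kmt2a followed with -1.15 (adjusted p = 0.00231) and -0.73 (adjusted p = 0.0142). Without GSI replicate 2, Kmt2a had an adjusted p of 0.0565. Under total-count scaling or without GSI replicate 2, 5 partners in place of 9 were higher. Kmt2a and Kmt2d were not matched by name to a length and GC content in the annotation used, so they were not fitted with that correction. Under it, 5 of the other 7 lower partners passed.

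**Figure D4:**
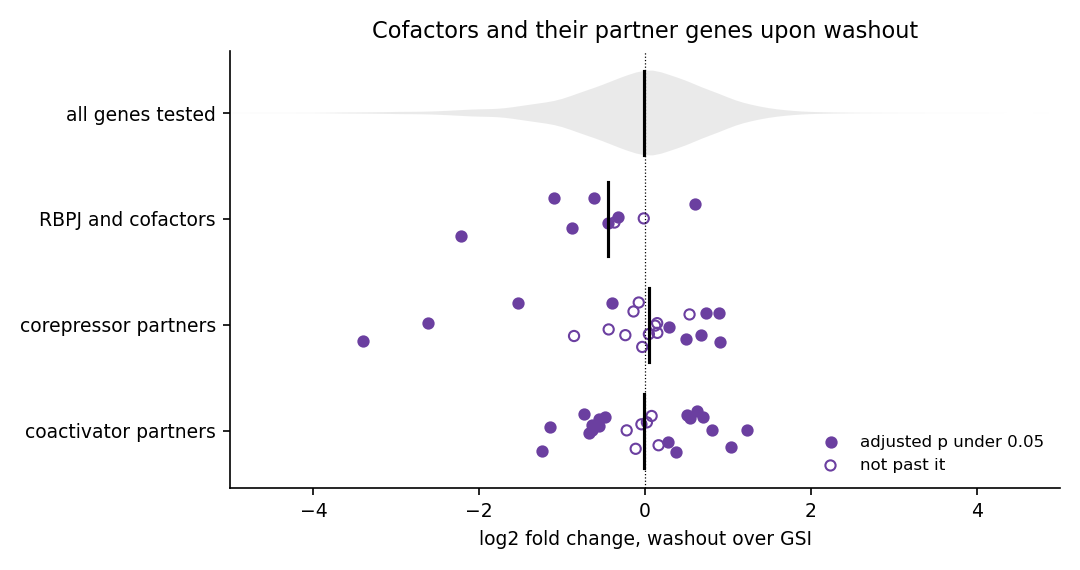
Log2 fold change of washout over GSI for all genes tested (shaded distribution; values beyond the axis are not drawn), for RBPJ and its cofactors and for their corepressor and coactivator partners, with 1 point per gene, filled where the adjusted p was under 0.05, and a black line at each median. The 9 genes lay mostly to the left with a median of -0.44, whereas the partner genes spread to both sides around medians of 0.05 and -0.01.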

How the data were processed

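The RNA-Seq data comprised 2 GSI and 2 washout libraries. Per the paper's methods the authors mapped trimmed reads to mm9 with HISAT2 2.2.1, reporting 1 alignment per read with introns of at most 3000 bases. They counted reads per gene with summarizeOverlaps on an annotation from iGenomes. All 9 members have a longer intron. This is not particular to them, as partners such as Hdac1 (7854 bases) have one too, while others such as Kat2a (1240 bases) do not. Raw counts were deposited by the authors, and all 4 columns were used. No column of the authors' own comparisons was among them. The library kit was stranded, while the overlap mode and strand setting of the counting were not given in the sources used here.

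Counts were compared with edgeR 4.0.16 (R 4.3.3) by filterByExpr, TMM scaling and the quasi-likelihood test without covariates, with Benjamini-Hochberg adjustment over all 12266 genes tested. The biological coefficient of variation was 0.121. CPM used the TMM-scaled library totals, and 3 counts corresponded to 0.0881 to 0.223 CPM. SE is that of the log2 fold change, taken from the F statistic. Thresholds were an adjusted p under 0.05 and, as in the study, a log2 fold change beyond 1. Exon lengths, GC content and gene positions came from GENCODE vM1 on mm9, an annotation other than the one used for counting, and promoters from RefSeq. Exact intervals and permutation tests used scipy 1.17.1. Scripts were tested on simulated data.

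The members and gene lists were chosen with earlier results of these data known. Named were all members, their paralogs (some genes of the lists are not reported here), the 3 largest rises and falls past the adjusted p in each partner list, and the 3 genes nearest to Rbpj by Euclidean distance. Markers and the genes that overlap a member were added as checks. As alternatives, DESeq2 1.42.0 was run, edgeR was scaled by RLE factors or by total counts, the filter was dropped (1 count) or raised (10 counts per library), the replicate number was blocked, glmTreat was used, offsets removed the trends with GC content and exon length (10962 genes, 89.4% of those tested), and each library was left out.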

Additional observations from a re-analysis of the deposited data

How the results depend on the processing

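Rbpj did not pass the adjusted p in any of the 11 alternatives with a test against no change, while Maml1, Maml2, Maml3, Ep300 and Snw1 passed the adjusted p in each of them in the same direction. Crebbp passed in 4 (total count, no filter, replicate block and without washout replicate 2), Spen in 8 and Ncor1 in 5. After correction for GC content and length, the log2 fold change of Spen was 0.22, opposite in sign to the value above. In that fit 1 member was lower past both thresholds and 5 coactivator partners were lower. The fit left out Kmt2a and Kmt2d, which were among the 9 but were not matched by name to these features. Under total-count scaling 586 genes were higher and 1963 lower past both thresholds in place of 950 and 1437, and 5 coactivator partners were higher. glmTreat, by construction a stricter test, left 308 genes higher and 501 lower, 1 member lower (Maml2) and 0 higher, 0 corepressor partners higher and 2 lower, and 0 coactivator partners higher and 0 lower. At an unadjusted p under 0.05, glmTreat gave 0 members higher and 1 lower. It gave 0 corepressor partners higher and 3 lower, and 1 coactivator partner higher and 1 lower. Leaving out each library in turn gave 3 to 6 corepressor partners and 5 to 8 coactivator partners higher, 4 to 5 members lower and 1 higher. In these fits the lone library of a group is assumed to vary like the other group.

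Same-numbered libraries deviated together from their group means (correlation 0.497). With 2 pairs and no label of a shared culture, they are known to share a number and a rank in depth, replicate 1 being the deeper. The part of depth in this correlation was not tested. With the replicate block, 7 members were lower and 1 higher at the adjusted p, 981 genes were higher and 1576 lower past both thresholds, and the log2 fold change of Crebbp was -0.37 (edgeR adjusted p = 5.03e-04). The ratios between members are values without a test that could pass a threshold with 2 libraries in each group. The cause of these shifts was not tested. Depth limits Maml2 most, with 11 to 130 counts per library.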
